A study of Rattus norvegicus with 16 samples.

Results

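Dorsal root ganglia (DRGs) taken 14 days after tumor cell implantation (TCI) were compared with DRGs taken 14 days after a sham operation. The samples labelled TCI day 14 (4 samples) and sham (4 samples) were chosen by those labels, so that 8 of the 16 samples of the series enter the comparison, and it is the one comparison in the series that is matched for time since surgery. In the TCI group, Walker 256 cells, a rat mammary gland carcinoma line, were injected into the marrow space of the left tibia of adult female Sprague-Dawley rats. The sham rats received phosphate-buffered saline by the labels and boiled tumor cells by the methods of the study, and the files do not settle which. The L3 to L5 ganglia of the injected side of 1 rat made up 1 sample. The tumor cells were placed in the bone and not in the ganglia, and no allele or drug was varied between the groups.

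A DRG holds the cell bodies of sensory neurons, each wrapped by satellite glia, with Schwann cells around the axons, and with vessels, connective tissue coverings and resident macrophages. Interferons, which are secreted by immune and infected cells, act through receptors and STAT factors to switch on sets of genes that serve antigen presentation, resistance to viruses and the recruitment of lymphocytes. Interferon-gamma is made mainly by T cells and natural killer cells and is a strong inducer of MHC class II, of the immunoproteasome and of the chemokines that attract T cells. RNA of a whole ganglion mixes these cell types, so that more cells of a type cannot be told apart from more RNA per cell, nor fewer cells from less RNA per cell.

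Expression was given as FPKM, the fragments mapped to a gene, scaled to transcript length and to all mapped fragments of the sample. The 8 samples each listed 21021 genes, and 13150 to 13239 of them reached 1 FPKM in the sham samples against 13301 to 13700 in the TCI day 14 samples. Read totals are not in the files, so counting error is unknown. Judged from the smallest values above 0, relative depth ran from 0.945 to 1.05 over the 8 samples, a rough estimate from 6 to 12 values a sample. All 4 samples of each group correlated within the group at an r of 0.99 to 0.993 (sham) and 0.971 to 0.991 (TCI day 14), across genes, which are not independent replicates. Calca, which marks nociceptors, was abundant in all 8 samples, at 533 to 834 FPKM. The TCI day 14 samples were the more uneven group, with a median SD per gene of 0.137 on the log2(FPKM + 1) scale against 0.076 in sham, and the SD was the larger of the pair in 79% of the genes.

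The ganglia on TCI day 14 differed from sham mostly by genes that were higher. Of 13697 genes tested, 934 were raised (6.82%) and 194 were lowered (1.42%) at an adjusted p of at most 0.05 with no limit on the fold change (limma). The median log2 fold change was 0.02 over all tested genes, 0.58 over the raised genes and -0.28 over the lowered genes. A log2 fold change of at least 1 was reached by 304 of the raised genes and of at least 2 by 89, while none of the lowered genes reached -1 and 26 reached -0.5. The 4 TCI day 14 samples all lay above the 4 sham samples in 1848 tested genes (13.5%) and all below in 753 (5.5%), and this held for 919 of the 934 raised and 192 of the 194 lowered genes. The study's own cut-offs ask for an adjusted p up to 0.001 and for a log2 value of 1 or more, or of -1 or less, and with them limma called 4 genes raised (0.0292%), namely RT1-A1, RT1-Db1, Ctsw and Lilrb4, and 0 genes lowered. Of these, Ctsw was tested only through its day 14 level, and Lilrb4 was named after its values were seen. At an unadjusted p under 0.05 (limma), 3494 of the 13697 tested genes passed in either direction, the background for list counts at that level. Among them 1 gene had a log2 fold change of at most -1, Hes5 at -1.27 with an adjusted p of 0.118 (limma), named after its values were seen.

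**Figure D1:**
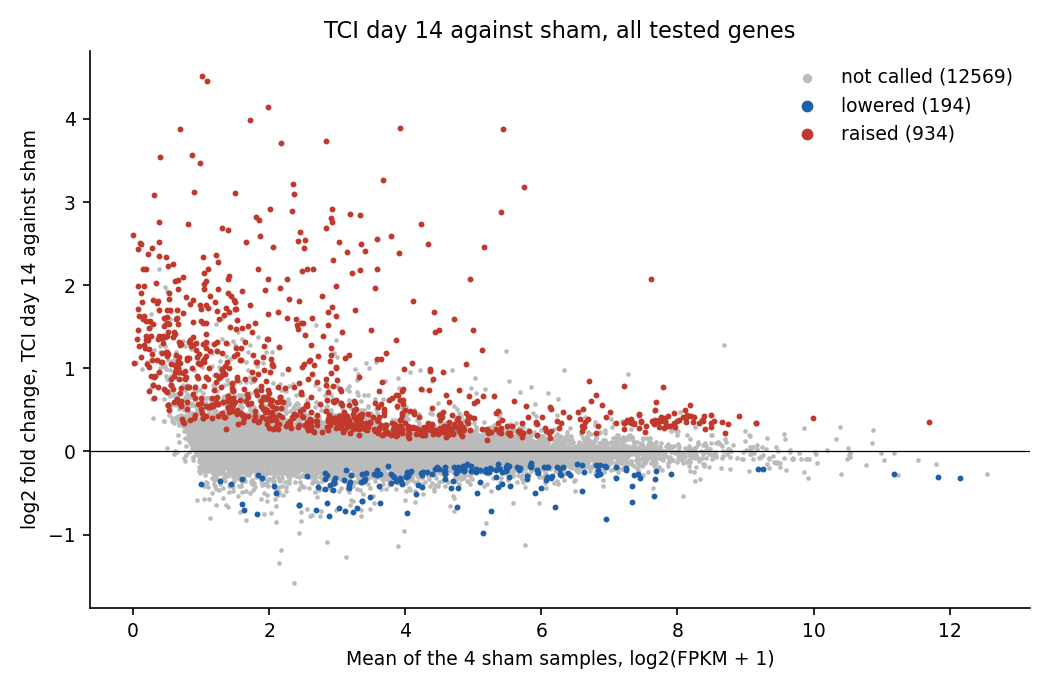
Each point is 1 of the 13697 tested genes, placed by its mean level in the 4 sham samples in log2(FPKM + 1) on the horizontal axis and by its log2 fold change on TCI day 14 against sham on the vertical axis, with the 934 raised genes in red, the 194 lowered genes in blue and the others in gray. The raised genes reach 4.51 and lie mostly at low and middle sham levels, whereas the lowered genes stay above -1.

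Both counts depended on the sham samples more than on any single TCI sample. Leaving out sham sample 1, 2, 3 or 4 left 263, 234, 317 and 377 raised and 25, 26, 35 and 46 lowered genes. Without TCI day 14 sample 2 there were 820 raised and 90 lowered genes, without sample 3 there were 1415 and 361, and without samples 1 and 4 in turn 670 and 746 raised and 133 and 201 lowered. No raised or lowered gene changed its direction in any of the 18 alternatives, and 178 raised and 10 lowered genes were called in every alternative that tested them. The split between raised and lowered depended on scaling. With the FPKM rescaled to the same sum in each sample 750 genes were raised and 300 lowered, and with quantile normalization 642 were raised and 691 lowered, as the median log2 fold change moved to -0.02 and -0.05. Small decreases are therefore given as values relative to a median that scaling can shift.

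Of the raised genes, 741 reached 1 FPKM in at least 3 sham samples (741 of 13057 such genes, or 5.68%), and the other 193 were tested only because of their level on day 14 (193 of 640). A gene that enters through its high group had to differ, so for most lists with raised genes the count is given for all tested genes and then for the genes tested on the sham levels alone. All log2 fold changes are on the log2(FPKM + 1) scale, which understates changes of genes below a few FPKM, and stand with the standard error from limma over 4 samples a group. List levels are the mean log2(FPKM + 1) over all listed genes, tested or not, and are descriptions without a test. Counts of called members are to be read against 6.82% raised and 1.42% lowered of all tested genes, and 5.68% raised on sham levels.

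MHC class II molecules, which present peptides to CD4 T cells, changed most among the gene lists. Of 15 listed genes 13 were tested and 12 were raised, the exception being Lgmn, a protease of the lysosome, at 0.04, named after its values were seen. Of the 10 tested on sham levels 9 were raised. The median log2 fold change was 2.69. RT1-Da, the alpha chain of the rat counterpart of HLA-DR, stood at 199, 399, 163 and 190.2 FPKM in TCI day 14 samples 1 to 4 and 13.5, 8.71, 23.1 and 14.4 FPKM in sham samples 1 to 4. Its log2 fold change was 3.89 ± 0.32 (limma adjusted p = 0.00157). Cd74, the invariant chain that escorts class II molecules to the endosome, stood at 556, 1241, 454 and 523 FPKM in TCI day 14 samples 1 to 4 and 42.03, 26.1, 71.1 and 40.5 FPKM in sham samples 1 to 4, a log2 fold change of 3.88 ± 0.36 (limma adjusted p = 0.00207). In both genes every TCI day 14 sample lay at more than 6 times the highest sham sample, and sample 2 was the highest. RT1-Db1, a beta chain, had a log2 fold change of 3.27 ± 0.23 (limma adjusted p = 0.000768), and RT1-Ba and RT1-Bb, the rat counterparts of HLA-DQ, had 3.74 ± 0.37 (limma adjusted p = 0.00323) and 3.71 ± 0.33 (limma adjusted p = 0.00192). RT1-Db2 had 2.69 ± 0.24 (limma adjusted p = 0.00192), and Ctss, the cathepsin that cuts the invariant chain, 2.15 ± 0.33 (limma adjusted p = 0.00974). Each of the 12 raised genes was called in every alternative that tested it, and 3 of them, RT1-DOa, RT1-DOb and Ciita, named after their values were seen, were tested in 17 of the 18 alternatives. The list level lay 2.10, 3.09, 2.09 and 2.07 above the sham mean in TCI day 14 samples 1 to 4, so that samples 1, 3 and 4 were nearly level and sample 2 higher.

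MHC class I and the machinery that loads it rose with it. Class I molecules show peptides from inside the cell to CD8 T cells, after cutting by the immunoproteasome and import by the TAP transporter. Of 32 listed genes 30 were tested and 25 raised, with 24 of the 29 tested on sham levels and a median log2 fold change of 1.88. B2m, the light chain of every class I molecule, stood at 741, 1319.8, 769 and 615 FPKM in TCI day 14 samples 1 to 4 and 196, 161, 219 and 211 FPKM in sham samples 1 to 4, a log2 fold change of 2.07 ± 0.21 (limma adjusted p = 0.00331). The heavy chain gene RT1-A2 stood at 318, 465, 285 and 222 FPKM on day 14 and 41.5, 43.5, 55 and 29.5 FPKM in sham, with 2.88 ± 0.24 (limma adjusted p = 0.00157). The smallest adjusted p of all tested genes belonged to RT1-A1, at 106, 146, 109.5 and 93.8 FPKM on day 14 and 16.5, 19.9, 21.4 and 18.8 FPKM in sham and a log2 fold change of 2.50 ± 0.13 (limma adjusted p = 0.000216). RT1-CE2 and RT1-CE10 had 2.92 ± 0.23 (limma adjusted p = 0.00129) and 2.73 ± 0.23 (limma adjusted p = 0.00161). RT1 class I genes are near-identical copies, and the share of reads given to each is uncertain, so the group is safer than any one member. Tap1, a subunit of the peptide transporter, stood at 24.97, 89.8, 26.9 and 19.3 FPKM on day 14 and 4.10, 4.27, 5.73 and 3.90 FPKM in sham, with 2.64 ± 0.41 (limma adjusted p = 0.00985). The mean over the listed genes was 1.51, 2.52, 1.43 and 1.24 above sham in samples 1 to 4. With sham samples 1 to 4 left out in turn there were 13, 13, 14 and 13 raised members.

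Genes known to respond to interferon-gamma formed the next group. Of 31 listed, 26 were tested, 19 were raised and 16 of the 21 tested on sham levels were raised, with a median log2 fold change of 1.55. Irf1, a transcription factor that interferon-gamma induces, stood at 15.5, 65.7, 10.6 and 12.1 FPKM in TCI day 14 samples 1 to 4 and 3.37, 3.40, 4.17 and 4.41 FPKM in sham samples 1 to 4, a log2 fold change of 2.07 ± 0.48 (limma adjusted p = 0.0358). Gbp2, a guanylate-binding protein that acts against intracellular pathogens, stood at 33.7, 201, 34.5 and 30.3 FPKM on day 14 and 5.42, 6.51, 8.44 and 6.11 FPKM in sham, with 2.81 ± 0.54 (limma adjusted p = 0.02). In Irf1 and Gbp2 the TCI day 14 samples 1, 3 and 4 were close together above all sham samples, and sample 2 was the highest by far. The immunity-related GTPases Ifi47 and Irgm2 had 3.11 ± 0.51 (limma adjusted p = 0.0113) and 2.45 ± 0.42 (limma adjusted p = 0.0142), and the apolipoprotein Apol3 had 1.32 ± 0.24 (limma adjusted p = 0.0176). The transcript of interferon-gamma itself, Ifng, did not pass the filter and was at 0.08, 0.98, 0.08 and 0.17 FPKM on day 14 and 0, 0, 0 and 0 FPKM in sham. In list level, samples 1 to 4 were 1.31, 2.55, 0.99 and 1.02 above sham. Without sham samples 1, 2, 3 and 4 in turn there were 2, 2, 6 and 7 raised members.

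Genes of the type I interferon response, which blocks the spread of viruses, were raised less evenly than those of MHC class I and II. Of 51 listed, 48 were tested, 26 were raised, and all 48 had a log2 fold change above 0. On sham levels 24 of 43 were raised, and the median log2 fold change was 1.15. Isg15, a ubiquitin-like modifier, stood at 18.4, 119.9, 28.4 and 17.7 FPKM in TCI day 14 samples 1 to 4 and 4.58, 4.17, 5.70 and 4.72 FPKM in sham samples 1 to 4, a log2 fold change of 2.55 ± 0.52 (limma adjusted p = 0.0248). Irf7, the factor that amplifies type I interferon, stood at 16.8, 137, 25.4 and 12.97 FPKM on day 14 and 4.34, 3.64, 5.49 and 4.05 FPKM in sham, with 2.53 ± 0.62 (limma adjusted p = 0.0409). Mx1, an antiviral GTPase, had 2.19 ± 0.53 (limma adjusted p = 0.0403). In these genes sample 2 stood at several times the other TCI samples, which themselves lay above every sham sample. Ifi27, Ifi44, Ifi35 and Slfn13 were more even, and Ifi27 stood at 363, 441, 412 and 307 FPKM on day 14 and 222, 203, 224 and 230.1 FPKM in sham, with 0.78 ± 0.10 (limma adjusted p = 0.00711). The log2 fold changes of Ifi44, Ifi35 and Slfn13 were 1.11, 1.16 and 1.47. The list level was 0.85, 2.17, 0.88 and 0.73 above sham in samples 1 to 4. Without TCI day 14 sample 2, 42 members were raised, and leaving out any 1 sham sample left 6.

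Promoters of such genes often hold the letters GAAANNGAA, part of the element bound by interferon regulatory factors, or TTCNNNGAA, the core of the element bound by STAT dimers. The 250 bases before the start of each gene were read from RefSeq (build GRCr8), whereas the build of the expression files is not given in the sources used here, and both motifs were searched on both strands. No sequence shown holds both motifs. The promoters of Gbp2 (chr2:234005477-234005726, plus strand), Tap1 (chr20:4668544-4668793, minus strand), Irf7 (chr1:205800024-205800273, minus strand) and Irf1 (chr10:38417685-38417934, plus strand) are given 5′ to 3′ on the strand of the gene because these 4 genes stand for the guanylate-binding proteins, peptide transport and the 2 regulatory factors above, with the matched letters in capitals (GAAANNGAA, read on either strand, in the first 3 and TTCNNNGAA in Irf1).
Gbp2: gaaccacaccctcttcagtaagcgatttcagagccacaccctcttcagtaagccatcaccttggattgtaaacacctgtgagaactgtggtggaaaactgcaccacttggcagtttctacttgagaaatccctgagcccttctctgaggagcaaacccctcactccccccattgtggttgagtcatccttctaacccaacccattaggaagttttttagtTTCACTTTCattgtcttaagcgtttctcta
Tap1: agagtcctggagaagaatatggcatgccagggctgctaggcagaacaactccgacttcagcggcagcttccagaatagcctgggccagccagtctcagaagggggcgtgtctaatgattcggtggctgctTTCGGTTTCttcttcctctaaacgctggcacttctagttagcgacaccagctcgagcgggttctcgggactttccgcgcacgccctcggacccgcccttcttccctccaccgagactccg
Irf7: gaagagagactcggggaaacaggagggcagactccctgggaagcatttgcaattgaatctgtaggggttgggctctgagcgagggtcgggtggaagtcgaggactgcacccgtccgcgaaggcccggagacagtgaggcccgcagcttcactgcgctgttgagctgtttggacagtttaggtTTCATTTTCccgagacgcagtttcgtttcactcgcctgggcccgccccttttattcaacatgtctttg
Irf1: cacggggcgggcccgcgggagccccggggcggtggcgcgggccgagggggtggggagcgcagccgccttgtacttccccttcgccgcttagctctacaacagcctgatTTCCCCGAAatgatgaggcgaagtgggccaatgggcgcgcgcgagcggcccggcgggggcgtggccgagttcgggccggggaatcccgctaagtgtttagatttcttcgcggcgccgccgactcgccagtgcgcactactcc
The match began 30, 120, 68 and 142 bases before the start in Gbp2, Tap1, Irf7 and Irf1. Over all 27457 genes with a promoter, 7.99% held GAAANNGAA and 7.52% held TTCNNNGAA. Of the raised interferon-gamma response genes 18 of 19 had a promoter, and 7 held GAAANNGAA and 7 held TTCNNNGAA. Of the raised MHC class I genes 24 of 25 had one, and 8 held GAAANNGAA and 1 held TTCNNNGAA. Of the 10 promoters found for the 12 raised MHC class II genes 1 held GAAANNGAA and 0 held TTCNNNGAA. Of the lowered genes 159 of 194 had one, and 3.77% held GAAANNGAA and 7.55% TTCNNNGAA. A promoter was found for 722 of the 934 raised genes (77.3%) and for 20 of the 26 raised type I interferon response genes (76.9%), which is too few for a share over either set. These matches describe sequence and were not tested as sites.

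**Figure D2:**
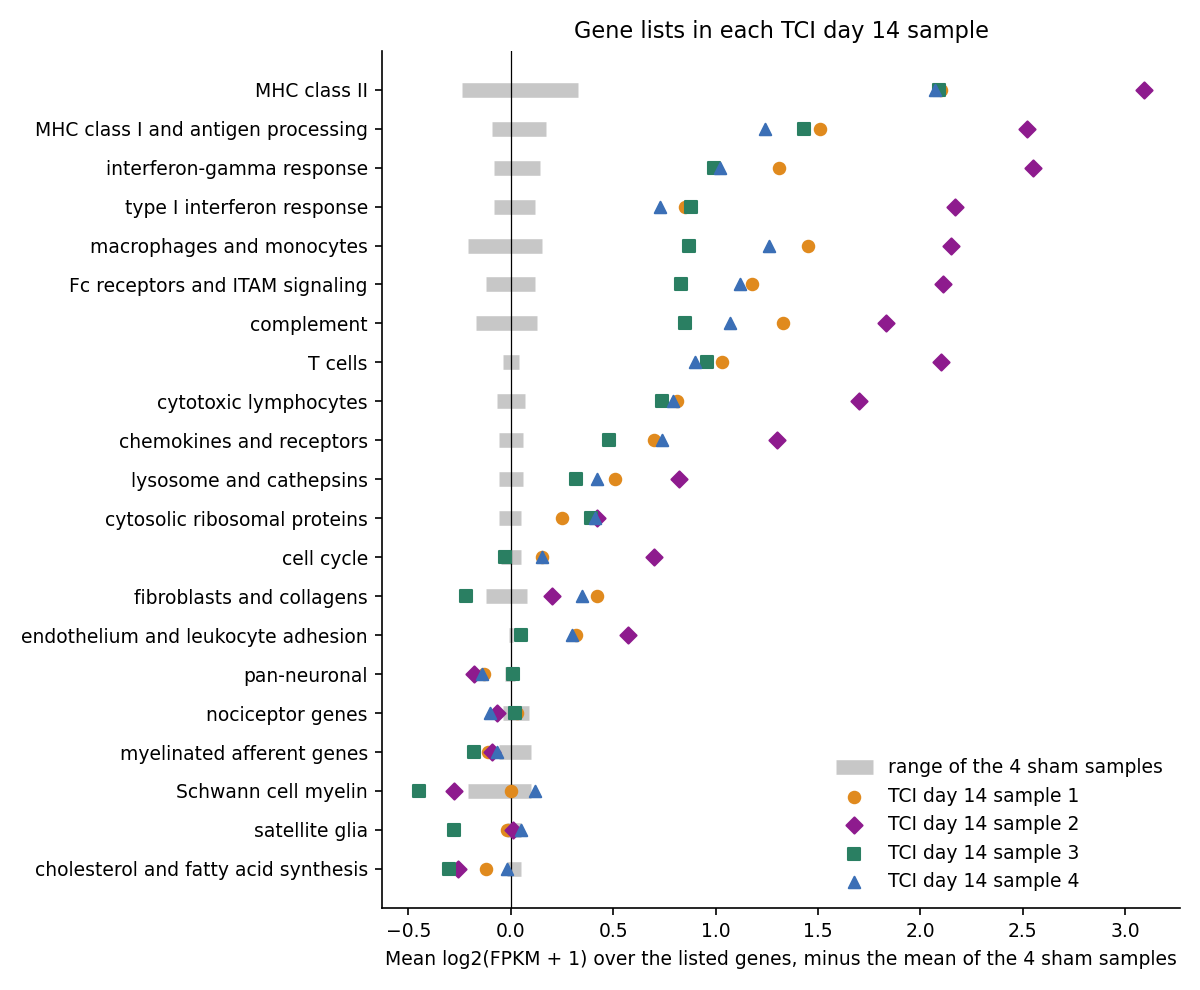
For 21 gene lists, the mean log2(FPKM + 1) over the listed genes is shown for each of the 4 TCI day 14 samples as the difference from the mean of the 4 sham samples, and the gray bar spans the 4 sham samples. Sample 2 lies farthest right in the immune lists, at 3.09 for MHC class II, whereas the ribosomal protein list lies between 0.25 and 0.42 in the 4 samples and the neuronal lists lie near 0.

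Chemokines, the secreted proteins that attract leukocytes, and their receptors were measured next. Of 57 listed genes 28 were tested and 12 raised, with 6 of 17 on sham levels and a median log2 fold change of 1.28. Ccl5, which draws T cells and monocytes, stood at 34.9, 115, 32.04 and 33.1 FPKM in TCI day 14 samples 1 to 4 and 1.28, 0.49, 2.05 and 0.98 FPKM in sham samples 1 to 4, a log2 fold change of 4.45 ± 0.40 (limma adjusted p = 0.00192). Cxcl9 and Cxcl10, the ligands of Cxcr3 on activated T cells, stood at 57.5, 199, 23.6 and 24.8 FPKM on day 14 and 1.78, 1.37, 4.55 and 2.19 FPKM in sham and at 15.4, 99.4, 15.3 and 13.04 FPKM on day 14 and 2.81, 1.64, 3.40 and 2.38 FPKM in sham. Their log2 fold changes were 3.99 ± 0.62 (limma adjusted p = 0.01) and 2.83 ± 0.57 (limma adjusted p = 0.0232). Cxcl13, the attractant of B cells and follicular T cells, rose by 3.88 ± 0.80 (limma adjusted p = 0.0249), with 159.9 FPKM in sample 2 against 10.7 to 12.8 FPKM in the other TCI samples and at most 1.99 FPKM in sham. The receptors Cxcr3 and Cxcr6 rose by 1.63 ± 0.21 (limma adjusted p = 0.00619) and 1.26 ± 0.16 (limma adjusted p = 0.0055). Ccl2, the monocyte chemokine, was at 17.9, 64.9, 21.5 and 19.1 FPKM on day 14 and 14.2, 11.8, 15.8 and 13.99 FPKM in sham and did not pass, with a log2 fold change of 0.88 ± 0.36 (limma adjusted p = 0.161), although its groups did not overlap. Without TCI day 14 sample 3, 19 members were raised, and leaving out sham samples 1 to 4 in turn left 6, 6, 6 and 8.

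Interleukins, the tumor necrosis factor family and their receptors made up the longest cytokine list. Of 123 genes 47 were tested, 18 were raised and 12 of the 39 on sham levels were, with a median log2 fold change of 0.37. Tnfrsf14, a receptor on lymphocytes, stood at 4.28, 14.5, 4.17 and 3.49 FPKM in TCI day 14 samples 1 to 4 and 0.27, 0.05, 0.25 and 0.29 FPKM in sham samples 1 to 4, a log2 fold change of 2.45 ± 0.35 (limma adjusted p = 0.00848). Tnfrsf1b, a receptor of tumor necrosis factor, rose by 1.29 ± 0.23 (limma adjusted p = 0.017), and the death ligand Tnfsf10 and the death receptor Fas rose by 1.29 ± 0.23 (limma adjusted p = 0.0147) and 0.54 ± 0.09 (limma adjusted p = 0.0107). Il18, which drives interferon-gamma production by lymphocytes, rose by 1.41 ± 0.29 (limma adjusted p = 0.026). The classical inflammatory cytokines stayed below the filter. Il1b was at 0.67, 3.11, 0.52 and 1.24 FPKM on day 14 and 0.29, 0.11, 0.34 and 0.5 FPKM in sham, Tnf was at 0.41, 2.86, 0.54 and 0.24 FPKM on day 14 and 0.08, 0.07, 0.1 and 0.18 FPKM in sham and Il6 was at 0.04, 0.22, 0.08 and 0.03 FPKM on day 14 and 0.03, 0.07, 0 and 0.17 FPKM in sham. Of these, Il1b and Tnf reached more than 2 FPKM only in TCI day 14 sample 2. Leaving out sham samples 1 to 4 in turn left 2, 2, 7 and 4 raised members.

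Most T cell genes were low in sham and higher on TCI day 14, with Cd4 already measurable in sham. All 12 tested genes of the 22 listed were raised, but 2 of them were tested on sham levels, and the median log2 fold change was 1.76. Cd3e, a chain of the T cell receptor complex, stood at 3.94, 12.7, 2.93 and 2.89 FPKM in TCI day 14 samples 1 to 4 and 0.04, 0, 0.12 and 0.05 FPKM in sham samples 1 to 4, a log2 fold change of 2.43 ± 0.36 (limma adjusted p = 0.00941). Cd8a, the co-receptor of cytotoxic T cells, stood at 4.17, 11.2, 4.38 and 3.02 FPKM on day 14 and 0.08, 0.02, 0.06 and 0.13 FPKM in sham, with 2.50 ± 0.29 (limma adjusted p = 0.00485). Cd4, the co-receptor of helper T cells, which rat macrophages carry as well, stood at 24.1, 39.04, 14.6 and 23.7 FPKM on day 14 and 4.49, 5.15, 7.23 and 6.79 FPKM in sham, with 1.87 ± 0.26 (limma adjusted p = 0.00747). Cd3g and Lat, a signaling adaptor, rose by 2.20 ± 0.29 (limma adjusted p = 0.00625) and 1.61 ± 0.22 (limma adjusted p = 0.00781). The mean over the listed genes was 1.03, 2.10, 0.96 and 0.90 above sham, so that samples 1, 3 and 4 were within 0.13 of each other and sample 2 was at more than 2 times the difference of each. With sham samples 1 to 4 left out in turn there were 8, 8, 9 and 9 raised members.

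Genes of cytotoxic lymphocytes, the killer T cells and natural killer cells, were likewise highest in sample 2. Of 19 listed 6 were tested and 5 raised, none of which was tested on sham levels. Prf1, perforin, stood at 1.59, 7.33, 1.25 and 1.91 FPKM in TCI day 14 samples 1 to 4 and 0.04, 0.02, 0.11 and 0.02 FPKM in sham samples 1 to 4, a log2 fold change of 1.72 ± 0.36 (limma adjusted p = 0.0265). Nkg7, a protein of cytotoxic granules, rose by 2.50 ± 0.41 (limma adjusted p = 0.0115), and the granzymes Gzmk and Gzmm rose by 1.35 ± 0.26 (limma adjusted p = 0.02) and 1.08 ± 0.16 (limma adjusted p = 0.00849). Ctsw, a cathepsin of cytotoxic cells, stood at 3.58, 7.02, 5.44 and 4.67 FPKM on day 14 and 0.11, 0.15, 0.3 and 0.11 FPKM in sham, with 2.38 ± 0.16 (limma adjusted p = 0.000768). Gzmb was not tested, at 0.09, 2.32, 0.23 and 0.32 FPKM on day 14 and 0.02, 0, 0.11 and 0.12 FPKM in sham. The inhibitory receptor Lag3 rose by 1.70 ± 0.36 (limma adjusted p = 0.0266), whereas Cd274, the ligand PD-L1, was at 10.96, 21.3, 11.1 and 10.3 FPKM on day 14 and 7.68, 8.12, 8.58 and 7.62 FPKM in sham and did not pass, with 0.62 ± 0.20 (limma adjusted p = 0.086). Of the 22 checkpoint and costimulation genes 8 were tested and 2 raised, Lag3 and Tnfrsf14, with 0 of 4 on sham levels.

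Macrophage and monocyte genes were measurable in sham and higher on TCI day 14. Of 23 listed 22 were tested and 14 raised, 8 of the 12 on sham levels, with a median log2 fold change of 1.39. Cd68, a lysosomal glycoprotein of macrophages, stood at 15.7, 40.8, 10.7 and 12.2 FPKM in TCI day 14 samples 1 to 4 and 1.70, 1.98, 2.53 and 2.49 FPKM in sham samples 1 to 4, a log2 fold change of 2.52 ± 0.35 (limma adjusted p = 0.00796). Aif1, also called Iba1, stood at 23.1, 76.2, 18.2 and 26.8 FPKM on day 14 and 5.85, 6.23, 6.96 and 9.06 FPKM in sham, with 1.99 ± 0.38 (limma adjusted p = 0.0197), and Csf1r, the receptor that macrophages need to survive, at 17.1, 28.4, 11.8 and 17.3 FPKM on day 14 and 4.12, 4.42, 6.47 and 6.02 FPKM in sham, with 1.60 ± 0.23 (limma adjusted p = 0.0091). Ms4a7, a membrane protein of macrophages, rose by 1.96 ± 0.28 (limma adjusted p = 0.00804). The lysozyme genes Lyz2 and Lyc2 rose by 3.18 ± 0.41 (limma adjusted p = 0.00619) and 4.14 ± 0.66 (limma adjusted p = 0.0107), and as near-identical copies they may share reads. In list level, samples 1 to 4 were 1.45, 2.15, 0.87 and 1.26 above sham, lowest in sample 3. Without sample 3, 20 members were raised, and leaving out sham samples 1 to 4 in turn left 9, 8, 9 and 10.

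Fc receptors, which bind antibody, and the ITAM adaptors that signal for them were raised as well. Of 17 listed 16 were tested, all above 0, and 12 were raised, 5 of 8 on sham levels. Fcgr3a, an activating receptor, stood at 11.1, 61.1, 8.80 and 6.51 FPKM in TCI day 14 samples 1 to 4 and 0.09, 0.09, 0.64 and 0.53 FPKM in sham samples 1 to 4, a log2 fold change of 3.54 ± 0.58 (limma adjusted p = 0.0113). Its shared signaling chain Fcer1g rose by 2.51 ± 0.34 (limma adjusted p = 0.00714) and the adaptor Tyrobp by 2.19 ± 0.30 (limma adjusted p = 0.00753). Fcgr1a, the high-affinity receptor, rose by 1.64 ± 0.25 (limma adjusted p = 0.00971). Fcgr2b, the inhibitory receptor, stood at 3.53, 3.40, 1.79 and 4.07 FPKM on day 14 and 0.51, 0.57, 0.49 and 0.48 FPKM in sham, with 1.44 ± 0.17 (limma adjusted p = 0.00485), and there sample 2 did not stand above samples 1 and 4. Without sham samples 1, 2, 3 and 4 in turn there were 5, 5, 6 and 7 raised members.

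Complement, a cascade of plasma proteins that marks targets for phagocytes, was raised from its first component to its receptors. Of 32 listed 29 were tested and 20 raised, 15 of 23 on sham levels, with a median log2 fold change of 1.24. C1qa and C1qc, chains of the recognition protein C1q, rose by 2.84 ± 0.42 (limma adjusted p = 0.00941) and 2.86 ± 0.38 (limma adjusted p = 0.00683). C2 stood at 51.8, 117, 27.6 and 27.9 FPKM in TCI day 14 samples 1 to 4 and 3.36, 3.50, 5.95 and 4.01 FPKM in sham samples 1 to 4, a log2 fold change of 3.22 ± 0.42 (limma adjusted p = 0.00619). C3, the central component, stood at 23.6, 49.3, 8.35 and 17.9 FPKM on day 14 and 0.58, 0.44, 0.87 and 1.58 FPKM in sham, with 3.57 ± 0.44 (limma adjusted p = 0.00539). Serping1, the inhibitor of C1, stood at 148, 245, 79.9 and 96.5 FPKM on day 14 and 27.9, 24.2, 31.6 and 37.1 FPKM in sham, with 2.08 ± 0.31 (limma adjusted p = 0.00961). Cfd, the protease of the alternative pathway and a product of fat cells too, rose by 1.71 ± 0.24 (limma adjusted p = 0.00798) and was highest in samples 4 and 1 rather than in sample 2. Itgb2, the beta chain of the complement receptors and of leukocyte integrins, rose by 1.77 ± 0.32 (limma adjusted p = 0.0171). The membrane regulators Cd55, Cd46 and Cd59, which shield cells from complement, did not pass, with log2 fold changes of -0.09, -0.19 and -0.03. The list level was 1.33, 1.83, 0.85 and 1.07 above sham. Leaving out sham samples 1 to 4 in turn left 9, 9, 13 and 16 raised members.

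Innate sensing, lysosomal and iron genes moved in part. Of 29 tested Toll-like receptor and inflammasome genes 10 were raised (4 of 18 on sham levels). Among them were Tlr3, the sensor of double-stranded RNA (0.97 ± 0.14, limma adjusted p = 0.00849), Tlr8 (0.91 ± 0.18, limma adjusted p = 0.0201), the inflammasome adaptor Pycard (1.68 ± 0.26, limma adjusted p = 0.00974) and the sensor Nlrp3 (0.71 ± 0.16, limma adjusted p = 0.03). Tlr2 and Myd88 did not pass, with 1.00 ± 0.29 (limma adjusted p = 0.0687) and 0.57 ± 0.17 (limma adjusted p = 0.0669). Without TCI day 14 sample 3 the list had 19 raised members, and leaving out any 1 sham sample left 2. Of 29 tested lysosome and cathepsin genes 9 were raised (7 of 27 on sham levels), led by Cd68, Ctsw and Ctss, whereas the general cathepsin Ctsb was at 1082, 1089, 1355 and 1043 FPKM on day 14 and 905, 917, 925 and 976 FPKM in sham and did not pass (0.29 ± 0.09, limma adjusted p = 0.0724). With sham samples 1 to 4 left out in turn there were 5, 4, 5 and 5 raised lysosomal genes. Of 20 iron genes 5 were raised (5 of 19 on sham levels). Cp, the ferroxidase ceruloplasmin, rose by 1.52 ± 0.29 (limma adjusted p = 0.0195), the phagosomal iron transporter Slc11a1 by 1.54 ± 0.36 (limma adjusted p = 0.0366), and Fth1, ferritin heavy chain and one of the most abundant transcripts of the ganglion, by 0.35 ± 0.07 (limma adjusted p = 0.0251), at 4064, 4114, 4517 and 4226 FPKM on day 14 and 3559, 3294, 3163 and 3271 FPKM in sham. Without sham samples 1, 2, 3 and 4 in turn there were 2, 1, 1 and 1 raised iron genes.

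Lipid mediators and the JAK and STAT pathway held 3 raised genes each. That is 13.6% and 12.5% of their tested genes, against 6.82% of all tested genes. On sham levels the counts were 1 of 18 and 3 of 24, against 5.68% of all such genes. At an unadjusted p under 0.05 (limma), 6 and 8 passed upward and 1 and 0 downward. Of all 13697 tested genes, 3494 passed in either direction. Of 22 tested lipid mediator genes 3 were raised (1 of 18 on sham levels), namely the secreted phospholipase Pla2g2d at 5.83, 23.4, 4.83 and 5.28 FPKM on day 14 and 0.16, 0.26, 0.43 and 0.39 FPKM in sham, thromboxane synthase Tbxas1 (1.38 ± 0.18, limma adjusted p = 0.00619) and Alox5ap, which serves leukotriene synthesis (0.73 ± 0.15, limma adjusted p = 0.0232). Pla2g2d had a log2 fold change of 2.76 ± 0.41 (limma adjusted p = 0.00942). Another secreted phospholipase, Pla2g5, was lowered (-0.37 ± 0.09, limma adjusted p = 0.045). The inducible cyclooxygenase Ptgs2 was not tested, at 0.09, 0.15, 0.18 and 0.16 FPKM on day 14 and 0.19, 0.19, 0.18 and 0.07 FPKM in sham. Of 24 tested JAK and STAT pathway genes 3 were raised, among them the kinases Jak3 (0.66 ± 0.16, limma adjusted p = 0.0416) and Tyk2 (0.31 ± 0.07, limma adjusted p = 0.0383), and Stat3, the factor of interleukin 6 signaling, was not called (0.09 ± 0.07, limma adjusted p = 0.455). Without TCI day 14 sample 3 the lipid mediator list had 6 and the JAK and STAT list 5 raised members, and without sham sample 1 they had 2 and 0.

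Ubd, the ubiquitin-like protein FAT10, had the largest log2 fold change of the raised genes. It stood at 35.7, 310.1, 36.1 and 9.53 FPKM in TCI day 14 samples 1 to 4 and 0.91, 0.82, 1.79 and 0.68 FPKM in sham samples 1 to 4, a log2 fold change of 4.51 ± 0.84 (limma adjusted p = 0.0186). Its 4 TCI values span more than 30-fold, the widest among the 15 genes with the largest rise, and TCI day 14 sample 4 was the lowest. Beyond the genes already given, those 15 include MGC108823, at 24.2, 63.6, 16.3 and 7.28 FPKM on day 14 and 0.7, 0.73, 2.21 and 0.63 FPKM in sham, with 3.47 ± 0.54 (limma adjusted p = 0.0102).

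**Figure D3:**
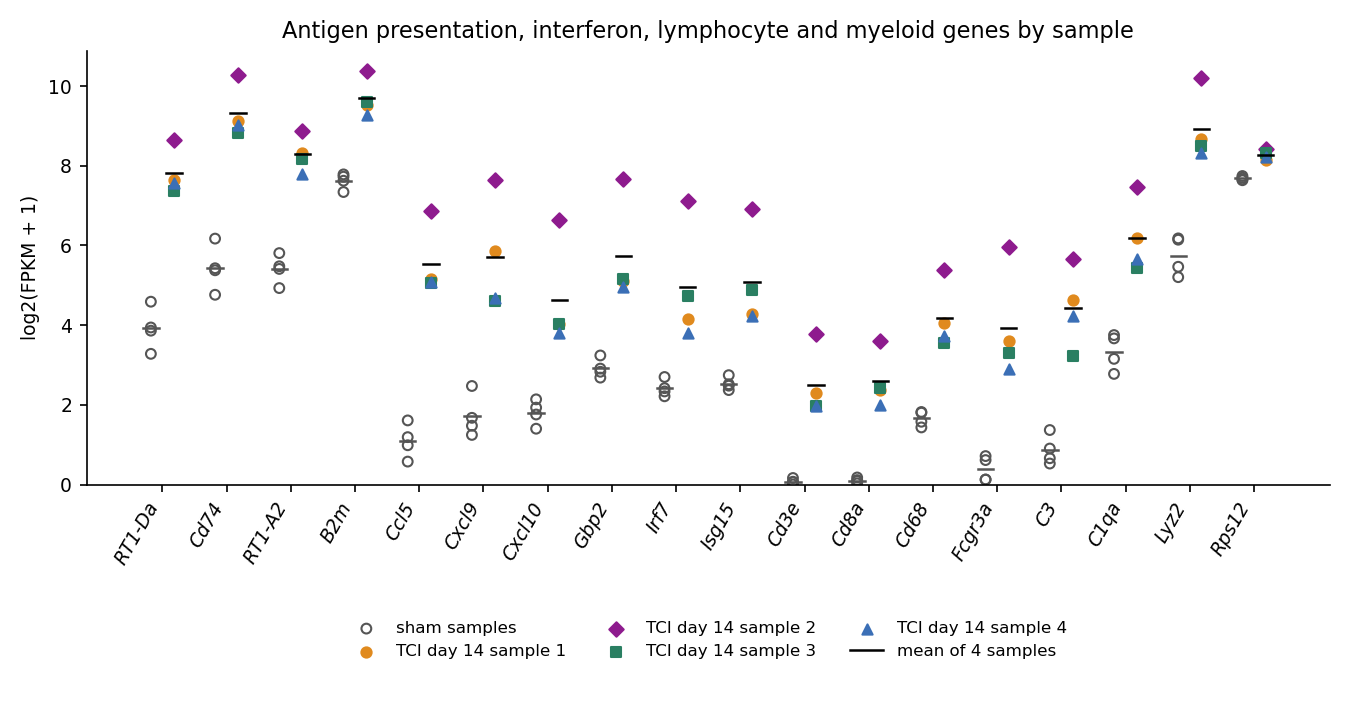
Log2(FPKM + 1) of 18 raised genes is shown in the 4 sham samples (open circles) and in each TCI day 14 sample (filled symbols), with a line at each group's mean. No gene shows overlap between the groups, and sample 2 is the highest TCI sample in each of them, by a wide margin in Irf7 and Isg15 and a narrow one in Rps12.

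Cytosolic ribosomal proteins, which build the ribosome, rose by little and evenly. Of 89 listed genes 84 were tested and 69 raised (69 of 83 on sham levels), 83 lay above 0, and the median log2 fold change was 0.37. Rps12 of the small subunit stood at 283, 341, 319 and 298 FPKM in TCI day 14 samples 1 to 4 and 213, 198, 201 and 207 FPKM in sham samples 1 to 4, a log2 fold change of 0.59 ± 0.06 (limma adjusted p = 0.00354). Rps4x stood at 282, 289, 295 and 279 FPKM on day 14 and 214, 216, 216 and 224 FPKM in sham, with 0.40 ± 0.04 (limma adjusted p = 0.00323). Of the large subunit, Rplp0, Rpl5 and Rpl3 rose by 0.44 ± 0.07 (limma adjusted p = 0.0104), 0.37 ± 0.04 (limma adjusted p = 0.00485) and 0.34 ± 0.06 (limma adjusted p = 0.0126). In these genes the 4 TCI samples lay close together and above all sham samples. The mean over the listed genes was 0.25, 0.42, 0.39 and 0.41 above sham, so that sample 1 was the lowest and sample 2 did not stand apart. With quantile normalization 64 members were raised, and leaving out sham samples 1 to 4 in turn left 34, 33, 38 and 45. Ribosomal protein genes have many processed copies in the genome, so the reads of single members are less certain than their sum.

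Several programs had no or few called genes. Of 34 tested cell cycle genes 0 were raised and 0 lowered (limma). At an unadjusted p under 0.05, 7 passed upward and 0 downward, against 3494 of all 13697 tested genes in either direction. Mki67, a marker of dividing cells, was at 1.41, 2.71, 0.69 and 1.17 FPKM on day 14 and 0.56, 0.7, 0.93 and 0.6 FPKM in sham (0.50 ± 0.21, limma adjusted p = 0.185), and the list level was 0.15, 0.70, -0.03 and 0.15 from sham, so that only sample 2 stood clearly higher. Of 49 fibroblast and collagen genes 1 was raised, Col6a2 (0.96 ± 0.23, limma adjusted p = 0.036). Dcn, the proteoglycan decorin of connective tissue, was at 452, 294, 157 and 359.5 FPKM on day 14 and 129, 135, 191 and 167 FPKM in sham and did not pass (0.93 ± 0.29, limma adjusted p = 0.0828). The fibroblast list was 0.42, 0.20, -0.22 and 0.35 from sham, with sample 3 below and the others above, and 14 of its members were raised when sample 3 was left out. Of 31 endothelial and adhesion genes 6 were raised, but 2 of 27 on sham levels, a share near that of all tested genes, and leaving out sham samples 1 to 4 in turn left 0, 0, 1 and 1 raised. Among the 6 were the tight junction gene Ocln (0.60 ± 0.12, limma adjusted p = 0.0246), the adhesion molecules Icam1 (1.44 ± 0.34, limma adjusted p = 0.0352) and Vcam1 (1.25 ± 0.31, limma adjusted p = 0.0428), which vessels present to leukocytes and which were named after their values were seen, Itgal, the alpha chain of the leukocyte integrin LFA-1 (2.25 ± 0.44, limma adjusted p = 0.0207), and Selplg, the selectin ligand of leukocytes (1.71 ± 0.38, limma adjusted p = 0.0293). The transporter Slco1c1 of brain vessels was lowered (-0.75 ± 0.17, limma adjusted p = 0.0349). The endothelial markers Cldn5, Cdh5 and Pecam1 did not pass, at 0.12, 0.23 and 0.09.

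The lowered genes changed by less than 1 on the log2 scale. The largest decrease was that of Kcnj10, the inward rectifier Kir4.1 by which satellite glia take up potassium. It stood at 19.9, 17.1, 10.3 and 23.3 FPKM in TCI day 14 samples 1 to 4 and 35.03, 33.1, 32.1 and 37.5 FPKM in sham samples 1 to 4, a log2 fold change of -0.97 ± 0.20 (limma adjusted p = 0.0259), with every TCI sample below every sham sample and sample 3 the lowest. Lect1, chondromodulin, stood at 74.8, 69.6, 54.3 and 81.95 FPKM on day 14 and 126, 123, 133 and 110.3 FPKM in sham, with -0.82 ± 0.12 (limma adjusted p = 0.00849). Bcan, the matrix proteoglycan brevican of glia, stood at 20.1, 21.4, 21.3 and 26.6 FPKM on day 14 and 37.95, 38.4, 34.4 and 38.1 FPKM in sham, with -0.72 ± 0.08 (limma adjusted p = 0.00485), and its 4 TCI samples were close together. Scrg1 and Tril changed by -0.73 ± 0.10 (limma adjusted p = 0.00798) and -0.67 ± 0.11 (limma adjusted p = 0.0129), and Pdpn, podoplanin, by -0.66 ± 0.16 (limma adjusted p = 0.0418). Of 22 satellite glia genes 2 were lowered (9.09%, against 1.42% of all tested genes), Kcnj10 and the endothelin receptor Ednrb (-0.44 ± 0.09, limma adjusted p = 0.0251). Another 2 were raised (9.09%, against 6.82%), the connexin Gjb6 (0.92 ± 0.19, limma adjusted p = 0.0265) and the filament protein Vim (0.34 ± 0.08, limma adjusted p = 0.04). On sham levels 1 of 21 satellite glia genes was raised, against 5.68% of all such genes, as Gjb6 was tested only through its day 14 level. Glul and Fabp7, common markers of these cells, did not pass, at 0.16 and -0.30. The satellite glia list was -0.02, 0.01, -0.28 and 0.05 from sham, so that only sample 3 was clearly lower. Leaving out sham samples 1 to 4 in turn left 0, 0, 0 and 1 lowered satellite glia genes.

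Some pan-neuronal genes were lowered by small amounts. Of 39 pan-neuronal genes 5 were lowered (12.8%, against 1.42% of all tested genes) and 0 were raised (limma), while 13 passed downward and 0 upward at an unadjusted p under 0.05. In 10 of the 39 all TCI samples lay below all sham samples, as in 753 of all 13697 tested genes (5.5%). Of the 39, 35 lay below 0, with a median log2 fold change of -0.10 against 0.02 over all genes. The neurofilament genes, which set the caliber of large axons, made up 3 of the 5. Nefl stood at 3383, 3628, 3826 and 3720.1 FPKM in TCI day 14 samples 1 to 4 and 4699, 4608, 4481 and 4419 FPKM in sham samples 1 to 4, a log2 fold change of -0.32 ± 0.07 (limma adjusted p = 0.0286). Nefm and Nefh changed by -0.31 ± 0.07 (limma adjusted p = 0.0358) and -0.27 ± 0.06 (limma adjusted p = 0.035). In all 3 the TCI samples lay below every sham sample, sample 1 was the lowest and sample 3 the highest. Syn2, a synaptic vesicle protein, and the microtubule protein Map1b, named after its values were seen, changed by -0.19 ± 0.05 (limma adjusted p = 0.0448) and -0.20 ± 0.05 (limma adjusted p = 0.046). The markers Rbfox3, Snap25 and Uchl1 did not pass, at -0.10, -0.19 and -0.01. With quantile normalization 8 pan-neuronal genes were lowered, and leaving out sham samples 1 to 4 in turn left 0, 0, 0 and 0. Leaving out TCI samples 1 to 4 in turn left 0, 0, 10 and 0 lowered genes, so the count rested on which samples were included. In list level, samples 1 to 4 were -0.13, -0.18, 0.01 and -0.14 from sham.

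Among sensory neuron classes, 0 of 42 tested nociceptor genes were raised or lowered (limma), with 2 upward and 4 downward at an unadjusted p under 0.05 and a median log2 fold change of -0.07. Calca, the precursor of the peptide CGRP, was at 622, 575, 834 and 533 FPKM on day 14 and 705, 611, 730.4 and 744 FPKM in sham, with -0.14 ± 0.13 (limma adjusted p = 0.551). Tac1, the precursor of substance P, and the heat channel Trpv1 had -0.17 ± 0.11 (limma adjusted p = 0.351) and -0.10 ± 0.08 (limma adjusted p = 0.492). Of 28 genes of myelinated afferents 1 was lowered, Nefh, and 21 lay below 0, with a median of -0.15. Of these genes 12 passed downward and 0 upward at an unadjusted p under 0.05. In 11 all TCI samples lay below all sham samples, as in 753 of all 13697 tested genes (5.5%). Their list level was -0.11, -0.09, -0.18 and -0.07 from the sham mean in TCI samples 1 to 4, below every sham sample in 4 of 4, and without TCI samples 1 to 4 in turn 0, 0, 5 and 0 genes were lowered. Of 49 transmitter receptor genes the glutamate receptor subunit Gria4 (-0.62 ± 0.11, limma adjusted p = 0.0129) and the glycine receptor subunit Glrb (-0.27 ± 0.05, limma adjusted p = 0.02) were lowered and none was raised. At an unadjusted p under 0.05, 15 of the 49 passed downward and 1 upward, against 3494 of all 13697 tested genes in either direction. None of 12 sodium and 19 calcium channel genes was called (limma), with 4 and 2 below 0 and none above at an unadjusted p under 0.05. The sodium channels of nociceptors Scn9a and Scn10a had -0.09 ± 0.06 (limma adjusted p = 0.428) and -0.17 ± 0.06 (limma adjusted p = 0.146), and Cacna2d1, the subunit bound by gabapentin, had -0.10 ± 0.07 (limma adjusted p = 0.412).

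Of 68 potassium channel genes 4 were raised (5.88%, below the 6.82% of all tested genes) and 2 lowered (2.94%, against 1.42%), with 3 of 64 on sham levels raised. The raised ones were the leak channels Kcnk2 (0.36 ± 0.09, limma adjusted p = 0.0437) and Kcnk6 (0.55 ± 0.14, limma adjusted p = 0.0454) and the accessory subunits Kcne2 (0.52 ± 0.10, limma adjusted p = 0.0232) and Kcnmb4 (0.27 ± 0.06, limma adjusted p = 0.0314), and Kcnj10 was among the lowered ones. With quantile normalization 0 were raised and 8 lowered, and leaving out any 1 sham sample left 0 raised. Nerve injury genes, which axotomized neurons switch on, held 3 calls. Atf3, the classical injury factor, was at 8.37, 13.6, 6.13 and 8.50 FPKM on day 14 and 3.82, 6.96, 5.85 and 12.2 FPKM in sham and did not pass (0.35 ± 0.31, limma adjusted p = 0.505), and the groups overlapped. Gal, galanin, had 0.05 ± 0.23 (limma adjusted p = 0.914), and Sprr1a was not tested, at 0.31, 0.38, 0.16 and 0.29 FPKM on day 14 and 0, 0.14, 0.1 and 0.22 FPKM in sham. Of 30 such genes Gadd45a was raised (0.26 ± 0.05, limma adjusted p = 0.0266) and Bdnf (-0.46 ± 0.10, limma adjusted p = 0.0266) and Nptx1 (-0.30 ± 0.07, limma adjusted p = 0.0288) were lowered. That is 3.33% raised and 6.67% lowered, against 6.82% and 1.42% of all tested genes. In this list 21 genes lay above 0, with a median of 0.12, and 8 passed upward and 3 downward at an unadjusted p under 0.05. All TCI samples lay above all sham samples in 5 and below in 2, against 13.5% and 5.5% of all tested genes.

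**Figure D4:**
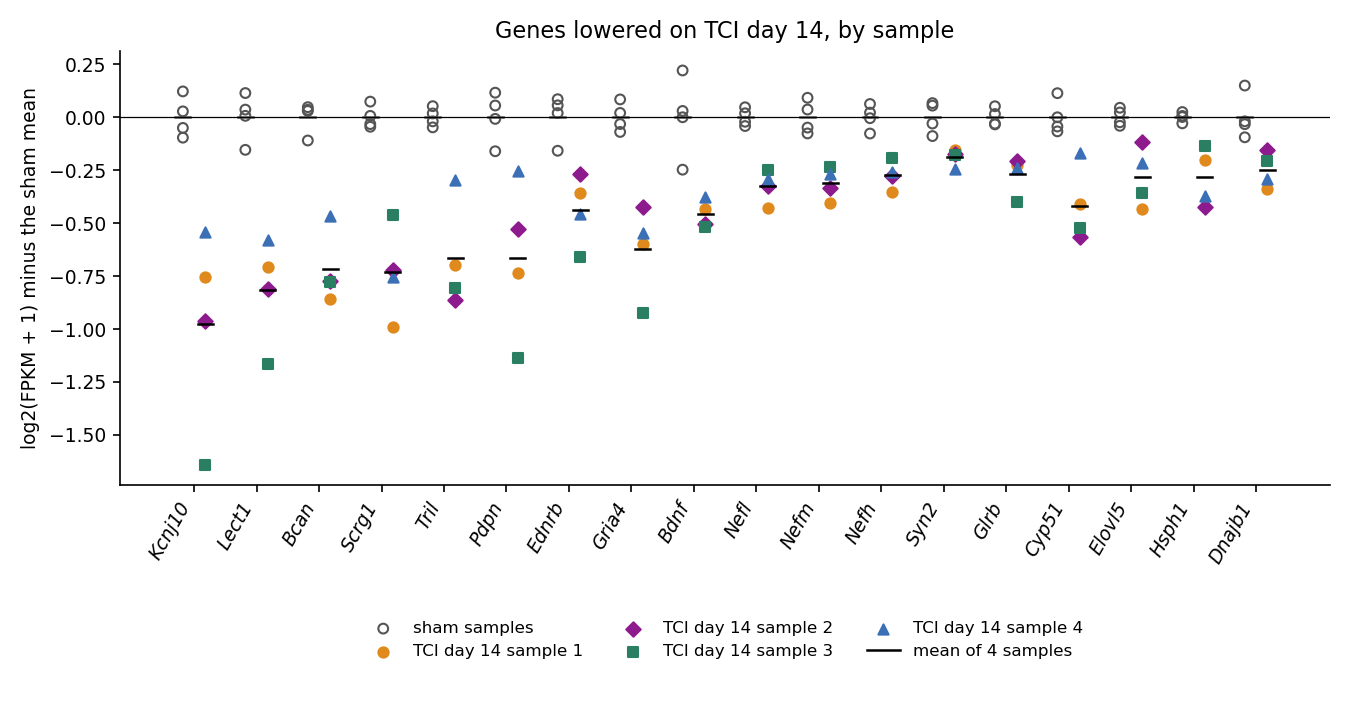
For 18 lowered genes, log2(FPKM + 1) minus the mean of the sham samples is shown for the 4 sham samples (open circles) and for each TCI day 14 sample (filled symbols), with a line at each group's mean. Every TCI sample lies below the sham samples, Kcnj10 reaches -1.64 in sample 3, and Nefl lies between -0.43 and -0.25 in the 4 TCI samples.

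Lipid synthesis and myelin genes lay lower in some samples. Of 42 cholesterol and fatty acid synthesis genes 3 were lowered (7.14%, against 1.42% of all tested genes), 38 lay below 0, and the median log2 fold change was -0.19. At an unadjusted p under 0.05, 18 passed downward and 1 upward. Leaving out sham samples 1 to 4 in turn left 0, 0, 0 and 0 lowered, and leaving out TCI samples 1 to 4 left 1, 4, 6 and 9. Cyp51, the lanosterol demethylase, stood at 120.1, 108, 111 and 142 FPKM in TCI day 14 samples 1 to 4 and 155, 153, 173 and 159.99 FPKM in sham samples 1 to 4, a log2 fold change of -0.42 ± 0.09 (limma adjusted p = 0.0252). The fatty acid elongase Elovl5 and the desaturase Fads1 changed by -0.28 ± 0.07 (limma adjusted p = 0.0418) and -0.25 ± 0.06 (limma adjusted p = 0.0481). The list level was -0.12, -0.26, -0.30 and -0.02 from sham, so that sample 4 was level with sham. Of 29 Schwann cell myelin genes 0 were called (limma), with 2 upward and 6 downward at an unadjusted p under 0.05. The myelin list level was 0.00, -0.28, -0.45 and 0.12 from sham. The stress list had 2 lowered genes, the chaperones Hsph1 (-0.28 ± 0.07, limma adjusted p = 0.035) and Dnajb1 (-0.25 ± 0.06, limma adjusted p = 0.0487), and 1 raised, Gadd45b (0.61 ± 0.13, limma adjusted p = 0.0275). Respiratory chain subunits had a median log2 fold change of 0.00, with 1 of 75 lowered, Ndufs1 (-0.19 ± 0.04, limma adjusted p = 0.0371). Of 23 immediate early genes 3 were raised (2 of 22 on sham levels), Dusp2 (1.34), Zfp36 (0.88) and Jund (0.48), and 1 was lowered, Arc (-0.39). Fos and Egr1 did not pass, at 0.16 and 0.45, and the clock list had 0 of 16 genes called (limma), with 5 upward and 0 downward at an unadjusted p under 0.05.

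Intracellular signaling and remodeling lists held few calls. Of 67 tested cAMP and calcium signaling genes 2 were raised (2.99%, below the 6.82% of all tested genes), the phosphodiesterase Pde9a (0.40) and the adenylyl cyclase Adcy4 (0.43). In the same list 3 were lowered (4.48%, against 1.42%), Rapgef4 (-0.22), the calcium pump Atp2c1 (-0.19) and the calcineurin subunit Ppp3cb (-0.18). Of 33 metalloproteinase and inhibitor genes Adamts13 was raised (0.73) and Adamts17 lowered (-0.64), which is 3.03% each way, with 0 of 31 on sham levels raised. Without TCI day 14 sample 3 8 of them were raised, and without samples 1, 2 and 4 0, 0 and 0. Of 45 other ion channel genes Clcn4 was lowered (-0.21). In all 46 lists together, 1245 genes were tested, of which 285 were raised and 26 lowered, against 934 and 194 of all 13697 tested genes (6.82% and 1.42%).

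How evenly the 4 TCI day 14 samples shared these changes differed by program. Of the 934 raised genes, sample 2 had the largest rise in 636 (68.1%), sample 3 in 156, sample 1 in 82 and sample 4 in 60. The median rise over these genes was 0.56, 0.74, 0.48 and 0.49 in samples 1 to 4. Among the 304 raised genes with a log2 fold change of at least 1, sample 2 had the largest rise in 287 (94.4%), and the medians were 1.45, 2.48, 1.16 and 1.27. In the median raised gene the smallest of the 4 rises was 0.43 of the largest, and in 292 genes (31.3%) it was at least 0.5 of it. The same ratio for the list levels was 0.67 for MHC class II, 0.60 for ribosomal proteins, 0.49 for MHC class I, 0.47 for complement, 0.43 for T cells and 0.34 for the type I interferon response. MHC class II and ribosomal proteins were thus the most evenly shared of these 6 and the type I interferon response the least.

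**Figure D5:**
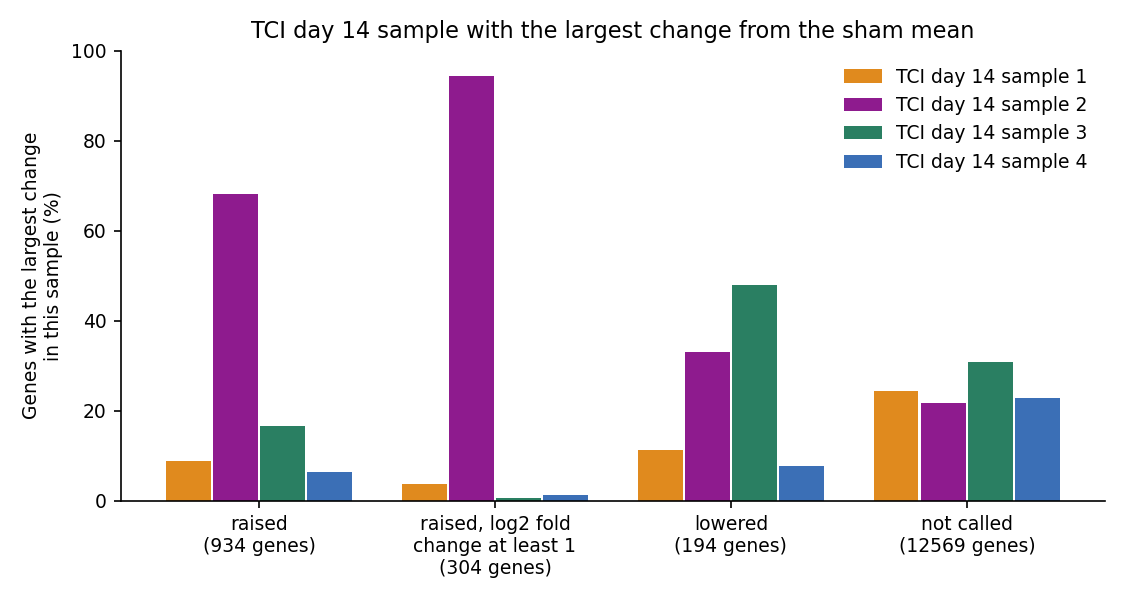
Bars give, for 4 sets of genes, the percentage of genes in which each TCI day 14 sample had the largest change from the sham mean, taken upward for the raised genes and the genes not called and downward for the lowered genes. Sample 2 holds 94.4% of the raised genes with a log2 fold change of at least 1, sample 3 holds 47.9% of the lowered genes, and the genes not called are spread from 21.8 to 30.8%.

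The lowered genes had another order of samples. Sample 3 had the largest decrease in 93 of the 194 (47.9%) and sample 2 in 64, and the medians were -0.25, -0.32, -0.32 and -0.22 in samples 1 to 4. On the first principal component of the 8 samples (57.9% of the variance) the TCI samples lay at 17.1, 44.6, 10.8 and 12.1 and the sham samples between -23.6 and -18. On the second (13.9%), TCI sample 3 lay at -29.3 and the other 7 samples between -0.4 and 9.6. Sample 2 thus stood apart on the axis that separates the groups, and sample 3 on another one. The genes that weighed most on the second component, named after their values were seen, included Mboat7l1, Alkbh6 and many known only by a LOC number on the side of sample 3. On the other side were Npy, Mboat7, Rpl30 and Col1a1, among others. Sample 3 was also the lowest TCI sample in the fibroblast, endothelial, satellite glia and myelin lists. The part of tissue composition, or of reads shared between gene copies, in the values of sample 3 was not tested.

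Markers of other cells were checked for the same samples. B and plasma cell genes stayed near 0, with 1 of 12 tested and none called, and the level of the list was 0.30 to 0.36 in sham and 0.32 to 0.57 on day 14. Neutrophil genes were low as well, with 1 of 16 tested, at a log2 fold change of -0.36, and none called. Their list level was 0.24 to 0.27 in sham and 0.31 to 0.38 on day 14, above every sham sample in all 4 TCI samples. S100a9 was at 1.13, 0.14, 0.67 and 0.16 FPKM on day 14 and 0.25, 0, 0 and 0.1 FPKM in sham. Mast cell genes were highest in TCI sample 1, where Cpa3 was at 1.19 FPKM against 0 to 0.48 FPKM in the other 7 samples. Of 17 epithelial and carcinoma genes 6 were tested and 0 called (limma), with 1 upward and 1 downward at an unadjusted p under 0.05, and the list level was 1.10 to 1.25 over the 8 samples. Krt18 was at 0 to 0.08 FPKM and Epcam at 0.17 to 0.68 FPKM in the 8 samples. Skeletal muscle genes were high in sham sample 4. There Acta1, the actin of skeletal muscle, was at 177 FPKM and Myh1, a myosin, at 26.4 FPKM, against 4.95 to 7.78 and 0.17 to 0.35 FPKM in the other 7 samples. Without sham sample 4, 377 genes were raised and 46 lowered, and MHC class II stayed at 12 raised members. Among fat cell genes 3 were tested and Cfd, given above, was raised. Of blood, 1 of 5 tested red cell genes was raised, Hbb-b1 (0.77 ± 0.17, limma adjusted p = 0.0331).

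The other TCI days place these levels in time, but they share the sham samples and differ from them in time since surgery. On day 1 the MHC class II list ranged from 2.31 to 2.54, on day 7 from 4.04 to 4.91 and on day 14 from 4.47 to 5.49, against a sham mean of 2.40 ± 0.24 (SD, n = 4). The macrophage list stood at 1.57 to 1.76, 3.33 to 3.75 and 2.51 to 3.79 on the 3 days. The day 7 and day 14 ranges overlapped for both lists, and day 1 lay within the sham range for both. That did not hold for every list. The type I interferon list was at 2.66 to 2.83 on day 1, above the sham samples at 2.33 to 2.53. Ribosomal proteins were at 6.88 to 6.94 on day 1, above the sham samples at 6.73 to 6.84. The T cell list, at 0.35 to 0.38 on day 1, lay within the sham range of 0.30 to 0.38. These ranges include 2 samples of days 1 and 7 that the study left out of its own comparisons.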

How the data were processed

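Total RNA from pooled L3 to L5 DRGs was sequenced, on a BGISEQ-500 by the methods and with Illumina protocols by the labels. Reads with adaptor, many unknown bases or low quality were discarded by the authors, who mapped the rest with HISAT and Bowtie2 and deposited FPKM per gene from RSEM, rounded to 2 decimals. The submitters' processing notes also name CASAVA 1.4. The genome build and annotation are not given in the sources used here. Strand and depth are not given for single samples, so counts could not be recovered, and the count tool of the study was not run.

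FPKM was turned into log2(FPKM + 1), which understates changes of low genes. Genes that reached 1 FPKM in 3 or more of these 8 libraries were tested with limma 3.58.1 (R 4.3.3) with an intensity trend, on the TCI day 14 and sham samples alone because their spread differed, and p-values were adjusted by Benjamini-Hochberg over all tested genes. A call is an adjusted p of at most 0.05. The cut-offs of the study were applied as a second rule. The script was tested on simulated data. Alternatives covered samples in the fit, scaling, filter, pseudocount, variance model, sample weights, the replicate block and each sample left out.

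Gene lists and tests were chosen with earlier results of these data known. Genes are named by a rule: the 15 largest changes in each direction among called genes whose groups do not overlap, the key genes of each list, and up to 4 members of each list in each direction by adjusted p. Genes named otherwise are marked as chosen after their values were seen. Lists carry counts and medians and no test. Replicates are separate rats. Promoter sequences come from RefSeq (GRCr8). Some genes are not reported here.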

Additional observations from a re-analysis of the deposited data

Results flagged for a closer look

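For each list level and each gene named in the text, the gap between the highest or lowest of the 4 samples of a group and its nearest neighbour was divided by the range of the group, and a sample was taken to stand apart where this ratio passed Dixon's 95% critical value. Of 462 such groups of 4, 49 stood apart, where chance gives about 1 in 20. TCI day 14 sample 2 accounts for 27 of them, sham sample 4 for 9 and TCI day 14 sample 3 for 5. The groups share samples and genes and are not independent.

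TCI day 14 sample 2 was the highest of its group for the level of MHC class II (0.961), cytotoxic lymphocytes (0.937), the type I interferon response (0.890), T cells (0.883) and checkpoint and costimulation (0.880), and the lowest for red blood cells (0.905). It was the highest for the adhesion molecule Icam1 (0.974), at 20.04 FPKM against 5.80 to 6 FPKM in the other 3. Among secreted factors and their receptors it was the highest for Cxcl13 (0.935), Ccl5 (0.934), Cxcl10 (0.921), Pla2g2d (0.889), Tnfrsf14 (0.869), Ccl2 (0.861) and Tnfrsf1b (0.847). Among genes of antigen presentation and interferon response it was the highest for RT1-Db2 (0.939), Gbp2 (0.932), RT1-Db1 (0.918), Cd274 (0.902), Apol3 (0.872) and Ifi47 (0.861). Among genes of leukocyte signaling it was the highest for Jak3 (0.939), Tyrobp (0.911), Cd3g (0.888), Itgal (0.864), Ncf1 (0.864) and Nkg7 (0.857). It was the lowest for Hapln1 (0.930), by 0.26 FPKM.

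TCI day 14 sample 1 was the lowest for cytosolic ribosomal proteins (0.882) and the highest for neurotransmitter receptors (0.889). TCI day 14 sample 3 was the lowest for Vim (0.928), Adamts13 (0.849) and Fads1 (0.830) and the highest for Ctsb (0.835) and Uchl1 (0.832).

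Sham sample 4 was the highest of its group for skeletal muscle fibers (0.989), at a list level of 2.54 against 0.77 to 0.79 in the other 3, for calcium channels (0.867), and for Slc6a20 (0.903), Gal (0.881), Gadd45a (0.857), Cirbp (0.856, as the lowest), Cdh5 (0.838), Nptx1 (0.833) and Cxcl13 (0.830). Sham sample 3 was the highest for MGC108823 (0.912) and the lowest for Ocln (0.940) and Bcan (0.888), sham sample 1 was the lowest for Cybb (0.872) and Cfd (0.846), and sham sample 2 was the lowest for Tnfrsf14 (0.847).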

How the results depend on the processing

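No raised or lowered gene changed direction in the 18 alternatives, whereas the counts moved. In 1 fit of all 4 groups with 14 samples 1670 genes were raised and 450 lowered, and with 16 samples 1248 and 141. Array weights gave 1475 and 325, a mean of at least 5 FPKM 555 raised, quantile normalization 691 lowered and rescaling to the same sum 300 lowered. Requiring a log2 fold change of at least 1 as well left 304 raised and 0 lowered (limma). Leaving out 1 sample at a time gave 234 to 1415 raised and 25 to 361 lowered genes. The cause was not tested.

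At the cut-offs of the study, 4 genes were raised. There were 90 and 93 in the fits of 14 and 16 samples, 54 with array weights, 2 with a mean of at least 5 FPKM, 1 without the intensity trend, 1 with quantile normalization, 1 with no filter, and 0 to 137 with 1 sample left out, the 137 being without TCI day 14 sample 2. Lowered genes stayed at 0 in each alternative (limma, with 1 gene under an unadjusted p of 0.05 in the reported fit).

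No pairing of the samples by number was seen. Same-numbered samples correlated at -0.09, 0.01, -0.07 and -0.03 in their deviations. No TCI day 14 sample correlated best with the sham sample of its own number. With 4 samples a group, such correlations cannot exclude a pairing or a shared batch. With a replicate block 237 genes were raised and 16 lowered, and 0 at the cut-offs of the study. Over the 46 lists, 408 counts moved by over 1.5 times and 1248 did not, and 23 list differences moved by more than the spread between replicates and 483 did not. For the 185 tested genes whose values are given, the call stayed in 2679 cases, was lost in 553 and was gained in 25. Per-sample depth is unknown, so changes of genes under a few FPKM cannot be weighed against counting error.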

Other observations

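Some called genes outside the lists have roles in common, and they were picked after their values were seen, so no group is tested and their direction is a description. Foxc1, Foxc2 and Zic2, transcription factors of the developing head and meninges, rose by 0.76 ± 0.08 (limma adjusted p = 0.00396), 0.89 ± 0.11 (limma adjusted p = 0.00609) and 1.03 ± 0.14 (limma adjusted p = 0.00683). Aldh1a2, which makes retinoic acid, the transporters Slc6a13 and Slc6a20 and the connexin Gjb2 rose by 1.17 ± 0.26 (limma adjusted p = 0.0294), 1.06 ± 0.11 (limma adjusted p = 0.00399), 1.11 ± 0.25 (limma adjusted p = 0.0314) and 1.11 ± 0.11 (limma adjusted p = 0.00331). Slc6a13 stood at 8.55, 6.69, 7.57 and 7.72 FPKM in TCI day 14 samples 1 to 4 and 3.34, 2.53, 2.85 and 3.95 FPKM in sham samples 1 to 4, with no overlap, and sample 2 was here the lowest TCI sample. Over 20 such genes the log2 fold changes were 0.55 to 1.17. Their mean difference from sham was 1.02, 0.78, 0.70 and 0.94 in samples 1 to 4. All 20 were picked among raised genes, which favors genes alike in the 4 samples, so their evenness cannot be set against that of the lists. Some of them, such as Aldh1a2, were tested only through their day 14 level.

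Rbm3 and Cirbp, RNA-binding proteins known to be induced by mild cold, rose by 1.47 ± 0.16 (limma adjusted p = 0.00464) and 0.74 ± 0.12 (limma adjusted p = 0.0103), and Rbm3 stood at 57.4, 87.3, 59.7 and 47.8 FPKM on day 14 and 22.8, 24.7, 20 and 19.5 FPKM in sham. Dnaja1, Chordc1 and Hspa4l, chaperones or their partners, were lowered by little and evenly, at -0.23 ± 0.04 (limma adjusted p = 0.0105), -0.44 ± 0.08 (limma adjusted p = 0.0147) and -0.36 ± 0.05 (limma adjusted p = 0.00771), and Dnaja1 stood at 177, 169.6, 174 and 177 FPKM on day 14 and 207, 205, 202 and 205 FPKM in sham. Over 9 such genes the mean difference from sham was -0.25, -0.31, -0.27 and -0.24 in samples 1 to 4. All 9 were picked among lowered genes, so the sign and evenness of this mean follow from the choice. Chaperones that were not called do not enter it. Cybb and Ncf1, subunits of the phagocyte oxidase, rose by 1.54 ± 0.34 (limma adjusted p = 0.0311) and 1.08 ± 0.25 (limma adjusted p = 0.036). Hapln1, which links proteoglycans such as brevican to hyaluronan, changed by -0.44 ± 0.10 (limma adjusted p = 0.0294) and stood at 5.76, 5.48, 5.74 and 5.76 FPKM on day 14 and 9.13, 9.20, 6.71 and 7.42 FPKM in sham.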
